A study of Mus musculus with 24 samples.

Results

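This account covers 35 genes that mark vascular endothelial cells, measured in mouse brown adipose tissue. They were taken from the deposited table by symbol: all 35 had a row among its 23017 genes, and all 35 stayed among the 17263 genes tested once the lowest 25% by mean were left out. The members cover junctions and surface adhesion (12 genes), receptors for growth factors, angiopoietins and guidance cues (9), secreted and matrix proteins with the fenestral diaphragm and nitric oxide synthase (5), transcription factors and Notch (5), and G protein-coupled receptors with an accessory protein (4).

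Blood vessels run through brown fat as a dense capillary bed that brings oxygen and lipid to the thermogenic cells. Endothelial cells line these capillaries, hold together through cadherin and claudin junctions, and read vascular endothelial growth factor (VEGF), angiopoietin, Notch ligand and apelin signals that set their growth, quiescence and permeability. Members of the ETS family (Erg) and the SOX family (Sox17, Sox18) of transcription factors help to keep the endothelial programme in place.

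The study asked, by its title, how agonism at the GIP receptor bears on the insulin sensitization that tirzepatide gives in obese, insulin-resistant mice. Brown fat of C57BL/6J mice gave 24 polyA RNA-seq libraries, 6 in each of 4 groups. Vehicle mice received no drug. LAGIPRA mice received a long-acting GIP receptor agonist, TZP mice received tirzepatide, which activates both the GIP and the GLP-1 receptor, and PairFedVehicle mice received vehicle with matched feeding. Dose, duration, age and the group to which feeding was matched are not stated in the labels. Values are log2 expression as far as the deposited numbers show, with an offset near 1 that compresses differences of weakly expressed genes. The level of a gene is compared between groups and not with that of another gene. Every fold change below is a log2 fold change with its standard error (SE) and a limma p adjusted over all tested genes. A gene is called where that adjusted p is under 0.05. The labels do not state that the 6 libraries of a group are separate mice, so p-values measure only the spread between libraries. In bulk tissue, fewer endothelial cells and less RNA per endothelial cell cannot be told apart. The comparisons with Vehicle share its 6 libraries, and the others share a group in the same way, so they are given side by side and not as independent results.

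The tissue carried its label: Ucp1, the uncoupling protein of brown fat, lay between 14.70 and 15.91 in all 24 libraries. The mesothelial markers Msln, Upk3b and Wt1 stayed near the floor (at most 0.69, 0.42 and 0.44). Krt19, the last of these 4 markers, was higher, from 0.855 to 2.55 with a median of 1.57, and 0 of the 4 passed the filter. Lymphatic markers were present: of 7, only Prox1 (at most 1.34) and Reln (at most 1.73) were near the floor, while Ccl21a had a median of 6.79 over the 24 libraries and the other 4 had medians from 4.28 (Mmrn1) to 4.85 (Lyve1). Of these lymphatic markers, Ccl21a ran from 0.77 to 7.49 between libraries and Mmrn1 from 1.44 to 5.48. Skeletal muscle markers also differed widely between libraries, with mean levels from 0.56 to 10.64. Long transcripts were low in 4 of the 6 TZP libraries. The slope of a library on transcript length, in log2 units per doubling of length, ran from 0.02 to 0.06 in Vehicle, was 0.02 in both TZP libraries 1 and 2, and ran from -0.17 to -0.07 in TZP libraries 3 to 6. Its mean was -0.07 in TZP and 0.05 in Vehicle (exact two-sided permutation test, p = 0.00649, adjusted p = 0.026 over 6 comparisons). Vehicle also stood above LAGIPRA (0.01, exact permutation p = 0.0173, adjusted 0.0346) and PairFedVehicle (0.01, exact permutation p = 0.00866, adjusted 0.026) in this slope. The lower mean of TZP did not pass against PairFedVehicle or against LAGIPRA (exact permutation p = 0.0455, adjusted 0.0545 for each). LAGIPRA and PairFedVehicle did not differ in it by the same test (adjusted p = 0.812). Endothelial genes are long, with a median longest transcript of 3747 bases against 2670 for all tested genes, so for many genes TZP libraries 1 and 2 are given apart from 3 to 6.

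Promoters of 3 members are shown because the text returns to them: Cldn5 was lower in all 3 groups than in Vehicle, Emcn was higher in 2 of them, and Tek had the smallest p of the members in TZP against PairFedVehicle. Each window spans the start of the gene and lies mostly upstream of it, from RefSeq on GRCm38.p6, all 3 on the plus strand, printed 5′ to 3′. The build behind the expression table is not stated in the labels, and these windows describe the genes and not the reads. Capitals mark a match to AACAGGAA, an ETS-type motif, which reads TTCCTGTT on the other strand.
Cldn5 (chr16:18776597-18776896): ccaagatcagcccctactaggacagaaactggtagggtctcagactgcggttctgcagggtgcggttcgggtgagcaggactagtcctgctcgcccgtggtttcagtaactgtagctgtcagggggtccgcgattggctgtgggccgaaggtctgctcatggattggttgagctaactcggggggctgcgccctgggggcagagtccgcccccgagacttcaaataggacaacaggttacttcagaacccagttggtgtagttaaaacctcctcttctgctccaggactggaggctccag
Emcn (chr3:137340828-137341127): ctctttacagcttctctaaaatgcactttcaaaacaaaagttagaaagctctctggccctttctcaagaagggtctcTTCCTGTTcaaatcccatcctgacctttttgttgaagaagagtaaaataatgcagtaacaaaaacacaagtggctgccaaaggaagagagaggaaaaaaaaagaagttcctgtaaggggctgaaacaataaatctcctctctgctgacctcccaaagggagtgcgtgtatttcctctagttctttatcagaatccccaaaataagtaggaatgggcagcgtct
Tek (chr4:94739039-94739338): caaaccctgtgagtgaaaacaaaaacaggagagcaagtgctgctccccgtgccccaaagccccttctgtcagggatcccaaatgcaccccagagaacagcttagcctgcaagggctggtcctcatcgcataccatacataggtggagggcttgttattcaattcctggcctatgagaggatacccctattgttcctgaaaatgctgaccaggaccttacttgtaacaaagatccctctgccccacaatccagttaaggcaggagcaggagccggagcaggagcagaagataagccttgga

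Of the 35 members, 17 had a promoter window in the RefSeq table, with 21 windows in all. AACAGGAA occurred on either strand in 2 of these 21 windows (Egfl7 and Emcn) and in 2.65% of all 32851 windows of this length in the table. The ETS consensus CCGGAAGT occurred in none of the 21 and in 3.89% of all windows. CATTGT, a SOX-type motif, was found in Erg and Notch4 (12.6% of all windows), and TGACTCA, the AP-1 motif, in Notch4 (5.20% of all windows). These are letter matches in short windows and say nothing of binding.

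Against Vehicle, 15 of the 35 endothelial genes were lower in TZP and 0 were higher by limma (18 and 1 at an unadjusted p under 0.05), where 10.3% of all tested genes were lower and 11.7% higher. The median fold change of the 35 was -0.17 against 0.04 for all tested genes. Of the 35, 28 were negative, where 45.2% of all tested genes were. All 6 TZP libraries lay below all 6 Vehicle libraries for 8 members, against 2.05% of all tested genes. The 15 were, from the smallest p, Cldn5, Cd93, Vwf, Cdh5, Jcad, Tek, Ednrb, Flt1, Mmrn2, Pecam1, Podxl, Kdr, Ptprb, Aplnr and Cd34. Cd93, Jcad and Flt1 fell most. Calls differed between the parts of the TZP group. With TZP libraries 1 and 2 alone, 3 members were lower by limma (Cldn5, Cd93 and Aplnr, background 1.58% lower). At an unadjusted p under 0.05, 9 members were lower and 0 higher there. With libraries 3 to 6 alone, 15 were lower by limma (background 13.0% lower). These 2 fits differ in the number of TZP libraries as well as in length slope, and the part of each was not tested. Once the length slope of each library was added to the fit, Cldn5 alone passed, with 198 of all tested genes. With values corrected per library for length, 12 of the 15 kept their call (Cd34, Pecam1 and Ptprb did not) and Icam2 was called as well. In that fit 3471 genes were called, 1637 of them lower, and genes of unknown length entered it uncorrected. Counts of called members depended on the fit. Without the length slope TZP had 15, PairFedVehicle 5 and LAGIPRA 2. With the length slope TZP had 1, PairFedVehicle 8 (1639 genes) and LAGIPRA 4 (2774 genes). The slope itself differed between TZP and Vehicle, so the fit with the slope cannot tell a difference by treatment from a difference by slope. Its counts therefore do not rank the groups.

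**Figure D1:**
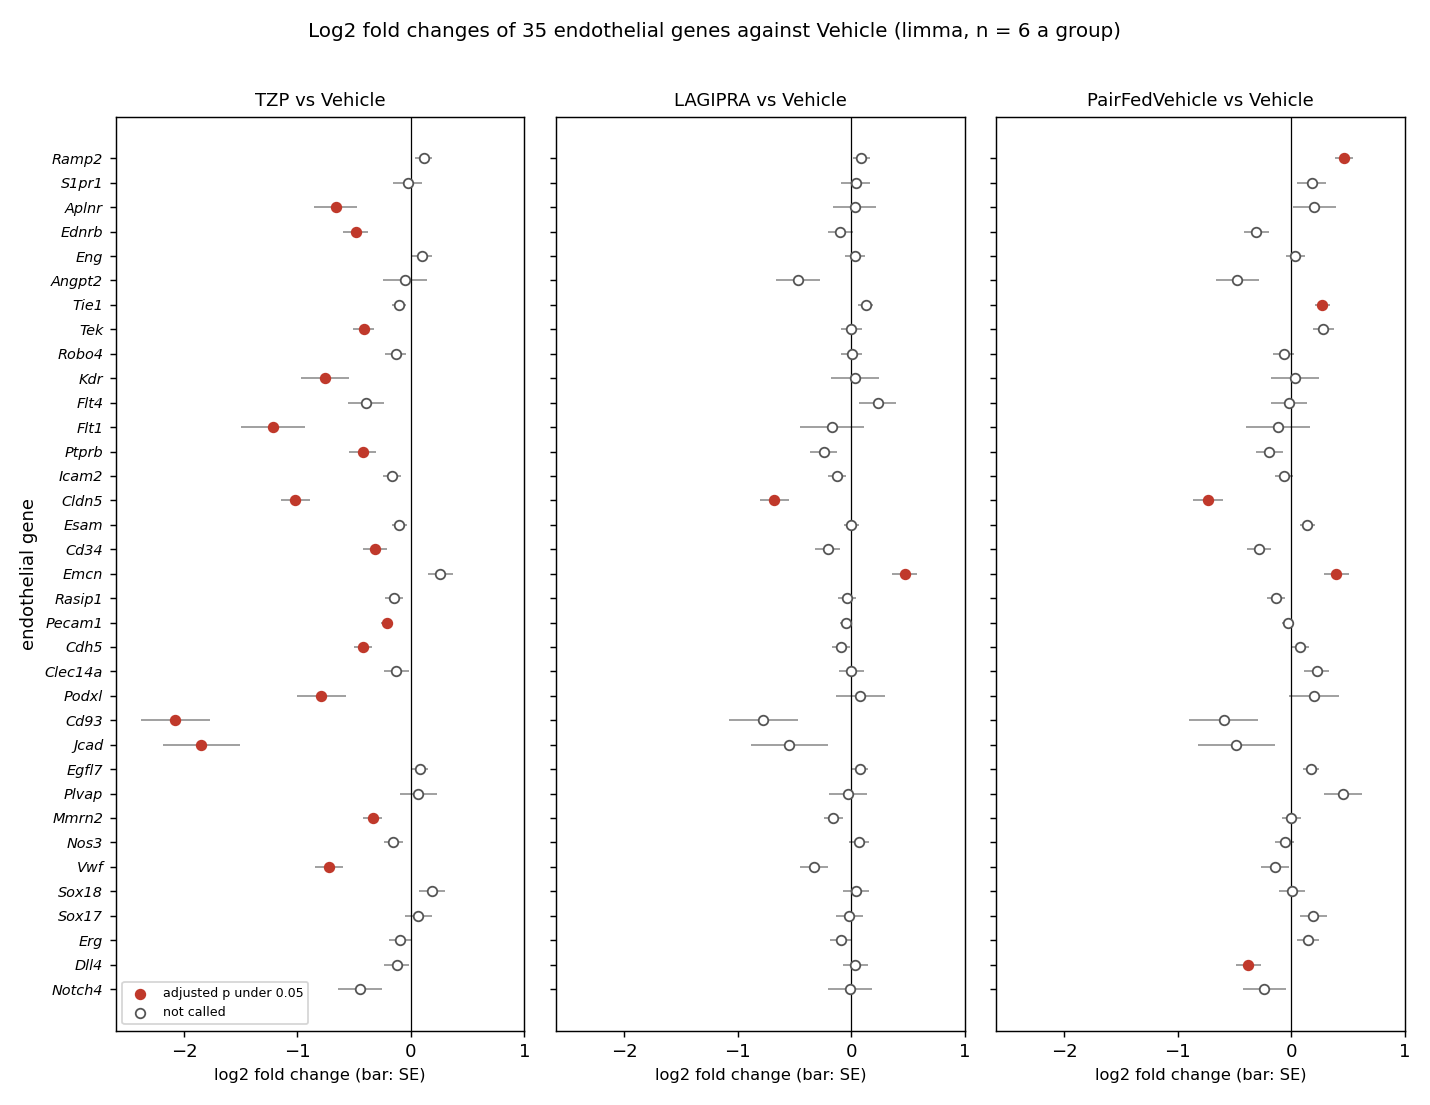
Log2 fold change (horizontal axis, bar: SE) of each of the 35 endothelial genes against Vehicle in TZP, LAGIPRA and PairFedVehicle, with genes ordered by role group and filled points for adjusted p under 0.05. TZP has 15 filled points, all below 0, while LAGIPRA has 2 and PairFedVehicle 5, on both sides of 0, and Cldn5 is filled on the left in all 3 panels.

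Among the junction and surface proteins, 7 of 12 members were lower in TZP than in Vehicle and 0 were higher (median -0.26). Cldn5, the claudin of endothelial tight junctions, had a lowest, median and highest level of 11.66, 12.06 and 12.33 in Vehicle. In TZP these were 10.63, 11.07 and 11.40. No TZP library reached the lowest Vehicle library, and Cldn5 fell by 1.02 (SE 0.13, adjusted p = 0.000201). The difference was of like size in both parts of the TZP group: the mean was 10.93 in libraries 1 and 2 and 11.05 in libraries 3 to 6. Its transcript is short, at 1416 bases.

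Cd93, a surface receptor of endothelial cells that binds the matrix protein multimerin 2, ran through 10.25, 10.76 and 11.09 in Vehicle (lowest, median, highest) and 7.60, 8.59 and 9.76 in TZP. Again the groups did not overlap, and Cd93 fell by 2.08 (SE 0.30, adjusted p = 0.000431). Libraries 1 and 2 of TZP, at 9.53 and 9.76, were already below Vehicle, with a difference of -1.06 (SE 0.21, adjusted p = 0.0106 with these 2 libraries alone). Libraries 3 to 6, at 9.33, 7.85, 7.70 and 7.60, averaged -2.58 against Vehicle. Its transcript is 6677 bases long.

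Cdh5, or VE-cadherin, the adhesion protein of endothelial adherens junctions, had 8.83, 9.01 and 9.14 in Vehicle and 8.30, 8.64 and 8.89 in TZP. It fell by 0.42 (SE 0.08, adjusted p = 0.00126), with TZP 1 at 8.89 above the lowest Vehicle library. Pecam1, the platelet endothelial adhesion molecule, moved least of the called members, by -0.21 (SE 0.05, adjusted p = 0.00824). Its levels were 7.20, 7.29 and 7.39 in Vehicle and 6.98, 7.08 and 7.18 in TZP, without overlap, and the mean differed from Vehicle by -0.22 in TZP libraries 1 and 2 and by -0.20 in libraries 3 to 6.

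Jcad, a junctional cadherin-associated protein, and Podxl, a sialomucin, split within the TZP group. Jcad fell by 1.85 (SE 0.34, adjusted p = 0.00126): TZP libraries 1 and 2 stood at 7.04 and 7.25, just under the lowest Vehicle library at 7.41, while libraries 3 to 6 stood at 5.73, 5.05, 5.44 and 4.05. Podxl fell by 0.79 (SE 0.22, adjusted p = 0.0123), yet TZP 1 and 2, at 7.75 and 7.83, lay inside the Vehicle range of 7.56 to 7.91. Libraries 3 to 6 ran from 5.86 to 6.96. Cd34, a sialomucin shared with stromal progenitors, fell by 0.32 (SE 0.11, adjusted p = 0.0384), and lost its call without any 1 of 7 libraries (Vehicle 1 to 4, TZP 1, 2 or 6, adjusted p up to 0.0917).

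The receptors gave 4 of 9 members lower and 0 higher (median -0.40). Kdr (VEGF receptor 2, the main signalling receptor for VEGF) had 7.20, 7.38 and 7.60 in Vehicle. TZP 1 and 2 stood at 7.46 and 7.40, in the middle of that range, whereas TZP 3 to 6 stood at 6.62, 6.56, 6.01 and 5.66. The fold change over all 6 libraries was -0.76 (SE 0.21, adjusted p = 0.0146), and it was 0.06 with TZP 1 and 2 alone and 0.27 with the length slope in the fit. Flt1 (VEGF receptor 1, a high-affinity VEGF trap) showed the same split, at 6.82 and 7.06 in TZP 1 and 2 against 5.60, 5.24, 4.92 and 4.74 in TZP 3 to 6, where Vehicle ran from 6.83 to 7.11. Its fold change was -1.22 (SE 0.28, adjusted p = 0.00500), and 0.14 with the length slope in the fit. All 4 of these libraries lay below every Vehicle library in both genes, while TZP 1 was just under the lowest Vehicle library in Flt1, and TZP 1 and 2 lay inside the Vehicle range in Kdr.

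Tek (Tie2), the receptor for angiopoietins, had 6.08, 6.18 and 6.23 in Vehicle and 5.48, 5.73 and 6.08 in TZP. It fell by 0.41 (SE 0.09, adjusted p = 0.00402), with TZP 1 and 2 at 6.08 and 6.07 at the lower edge of Vehicle. Tie1, its orphan partner, was not called in TZP against Vehicle (-0.11, SE 0.06). Its levels were 7.29, 7.35 and 7.51 in Vehicle and 7.16, 7.28 and 7.45 in TZP, which overlapped. Ptprb (VE-PTP), the phosphatase that acts on Tek, fell by 0.43 (SE 0.12, adjusted p = 0.0147), with TZP 1 and 2 at 5.77 and 5.90 inside the Vehicle range of 5.66 to 6.24. The ligand Angpt2, the lymphangiogenic receptor Flt4, the TGF-beta co-receptor Eng and the guidance receptor Robo4 were not called.

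Of the secreted and matrix group, 2 of 5 were lower. Vwf, von Willebrand factor, which tethers platelets, had 5.40, 5.66 and 5.89 in Vehicle and 4.68, 4.92 and 5.24 in TZP. The groups did not overlap and Vwf fell by 0.72 (SE 0.12, adjusted p = 0.000911), although its difference with TZP 1 and 2 alone, -0.52 (SE 0.16, adjusted p = 0.0633), did not pass. Mmrn2, multimerin 2 and the matrix ligand of Cd93, ran through 7.14, 7.23 and 7.31 in Vehicle and 6.53, 6.97 and 7.09 in TZP, and fell by 0.34 (SE 0.08, adjusted p = 0.00742) without overlap. Its difference was -0.17 with TZP 1 and 2 alone (adjusted p = 0.251) and -0.42 with TZP 3 to 6 alone (adjusted p = 0.00156). Egfl7 (a secreted regulator of vessel sprouting), Plvap (the diaphragm protein of fenestrae) and Nos3 (endothelial nitric oxide synthase) were not called. Plvap differed in sign between the parts of TZP. It had -0.38 (SE 0.21, adjusted p = 0.248) with TZP 1 and 2 alone and 0.29 (SE 0.15, adjusted p = 0.179) with TZP 3 to 6 alone.

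Among G protein-coupled receptors, 2 of 4 were lower. Aplnr, the apelin receptor, split the other way: TZP 1 and 2 were the lowest libraries of the group at 10.48 and 10.46, and TZP 3 to 6 stood at 11.38, 11.17, 10.93 and 10.84. Vehicle ran through 11.18, 11.49 and 12.03, so the groups overlapped, and Aplnr fell by 0.66 (SE 0.19, adjusted p = 0.0161). With TZP 1 and 2 alone the fold change was -1.07 (SE 0.25, adjusted p = 0.0247), and with TZP 3 to 6 alone the call was lost. Ednrb, the endothelin B receptor, had 6.04, 6.10 and 6.17 in Vehicle and 5.27, 5.71 and 5.82 in TZP, and fell by 0.49 (SE 0.11, adjusted p = 0.00425) with no overlap. Its difference was -0.31 with TZP 1 and 2 alone (adjusted p = 0.154) and -0.57 with TZP 3 to 6 alone (adjusted p = 0.00143).

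The 5 transcription factor and Notch genes gave 0 calls in TZP against Vehicle by limma (0 higher and 1 lower at an unadjusted p under 0.05), with fold changes from -0.45 to 0.18. The TZP and Vehicle ranges of Erg, Sox17 and Sox18 overlapped. Notch4, the longest of the 5 at 6591 bases, was at 5.82 and 5.78 in TZP 1 and 2 and from 4.39 to 5.34 in TZP 3 to 6, with Vehicle from 5.31 to 5.89, and its fold change of -0.45 (SE 0.19) had an adjusted p of 0.0990. Across all roles, the 20 members not called in this comparison ran from -0.45 to 0.26, with adjusted p from 0.0804 up.

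**Figure D2:**
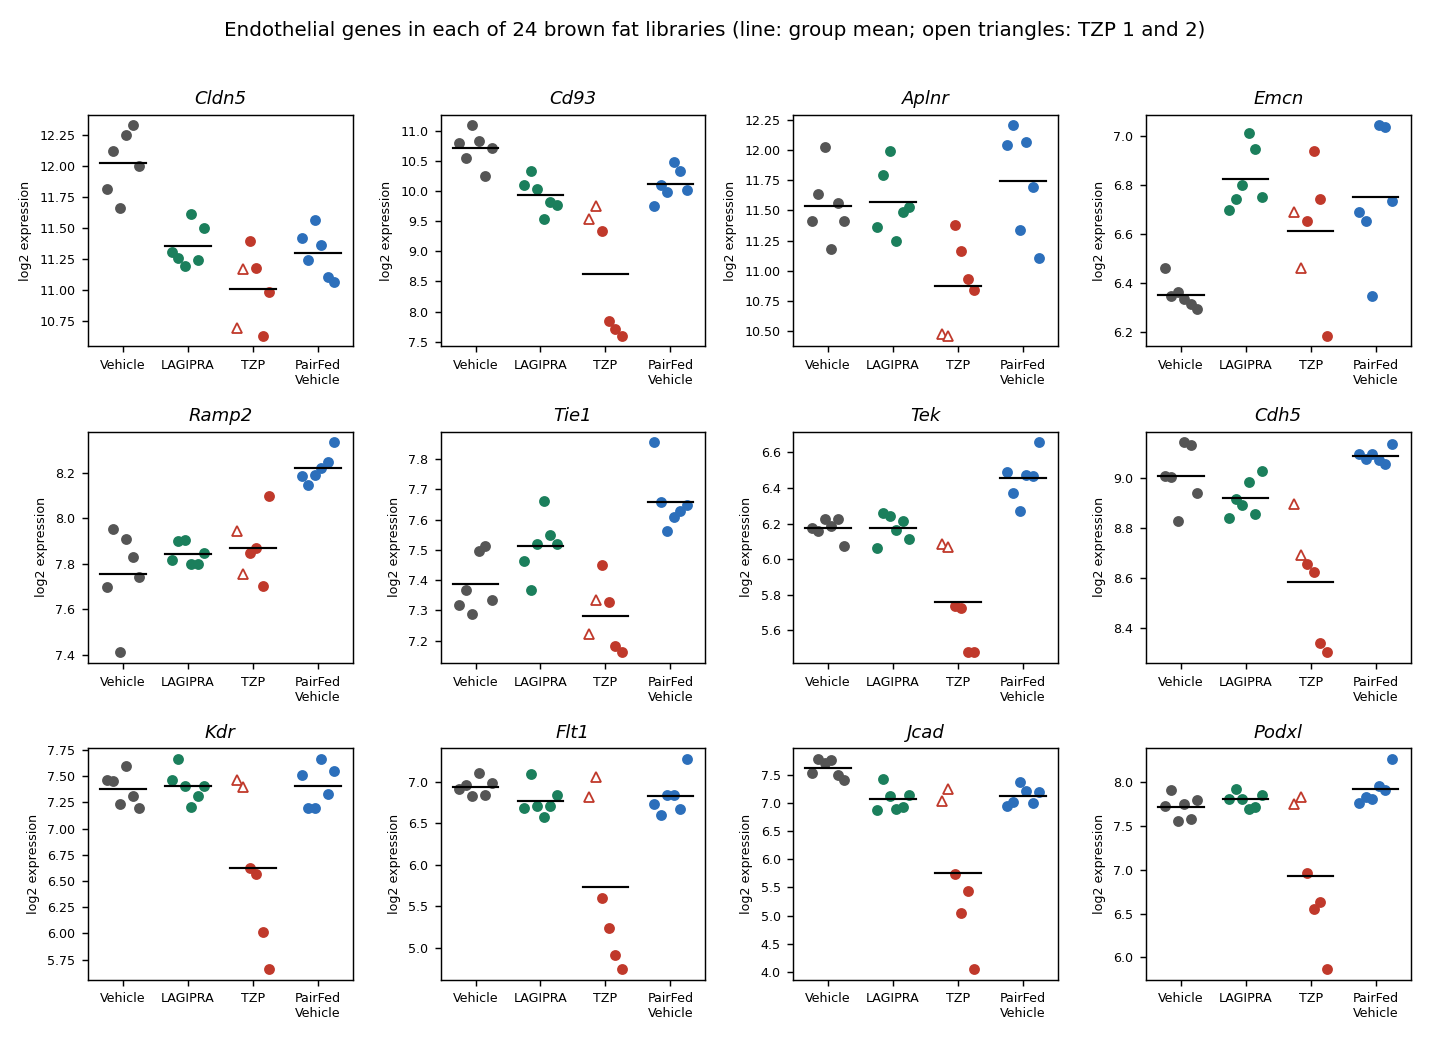
Log2 expression (vertical axis) of 12 endothelial genes in each of the 24 libraries by group, with lines at group means and open triangles for TZP libraries 1 and 2. Cldn5 is low in all 6 TZP libraries, Kdr, Flt1, Jcad and Podxl are low in TZP 3 to 6 with the open triangles at or near the Vehicle points, and Aplnr is lowest in the open triangles.

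Across the 35 members, the difference between TZP 3 to 6 and Vehicle followed transcript length, with a Pearson r of -0.57 and a Spearman rho of -0.74 over genes, which are not independent and share the same libraries. The same correlations for TZP 1 and 2 were -0.004 and -0.03. The 15 members of 4000 bases or more had a median difference of -0.60 in TZP 3 to 6, all 15 negative, where all long genes had -0.31. The 20 shorter members had -0.13, 13 of them negative, where all short genes had 0.14. In TZP 1 and 2 the median of the 15 long members was -0.07, 9 of them negative, where all long genes had -0.02. The 20 short members had -0.15 there, 15 of them negative, where all short genes had 0.06.

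**Figure D3:**
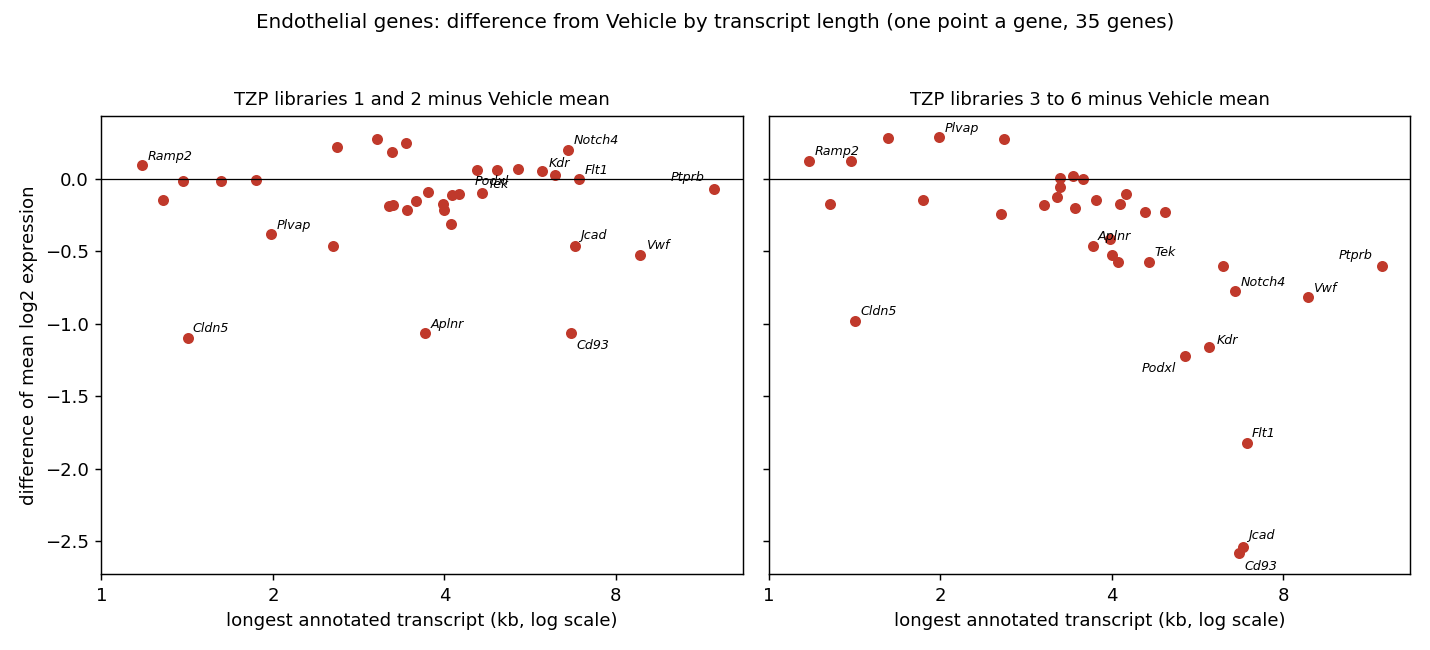
Difference of mean log2 expression from Vehicle (vertical axis) against the longest annotated transcript (horizontal axis, kb, log scale), one point for each of the 35 members, for TZP libraries 1 and 2 (left) and 3 to 6 (right). The right panel falls with length, from Plvap and Ramp2 above 0 to Cd93, Jcad and Flt1 below -1.8, and the left panel does not.

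Both groups without tirzepatide showed few differences from Vehicle. In LAGIPRA, 1 of the 35 was higher and 1 lower, where 8.70% of all tested genes were higher and 5.03% lower, and the members' median fold change was -0.01 against 0.03 for all tested genes. Cldn5 fell by 0.68 (SE 0.13, adjusted p = 0.00524): LAGIPRA ran through 11.19, 11.28 and 11.61, all below the lowest Vehicle library at 11.66. Emcn, endomucin, a sialomucin of capillary and venous endothelium, rose by 0.47 (SE 0.11, adjusted p = 0.0126). It ran through 6.30, 6.34 and 6.46 in Vehicle and 6.70, 6.78 and 7.01 in LAGIPRA, without overlap. The other 33 members had adjusted p of 0.0751 or more, among them Cd93 with -0.77 (SE 0.30) and Vwf with -0.33 (SE 0.12).

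In PairFedVehicle, 3 of the 35 were higher than in Vehicle and 2 lower, where 4.96% of all tested genes were higher and 3.66% lower. The members' median was 0.00028 against 0.02 for all tested genes. Ramp2, the accessory protein that makes the adrenomedullin receptor with Calcrl, rose by 0.46 (SE 0.08, adjusted p = 0.000393). Its levels were 7.41, 7.79 and 7.95 in Vehicle and 8.15, 8.21 and 8.34 in PairFedVehicle, without overlap. Cldn5 fell by 0.73 (SE 0.13, adjusted p = 0.000935), from 11.07 to 11.57 and again wholly below Vehicle.

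Tie1 rose by 0.27 (SE 0.06, adjusted p = 0.00886), from 7.56 to 7.86 in PairFedVehicle, above all Vehicle libraries. Emcn rose by 0.40 (SE 0.11, adjusted p = 0.0286) and overlapped Vehicle in its lowest library. Dll4, the Notch ligand of sprouting and arterial endothelium, fell by 0.38 (SE 0.11, adjusted p = 0.0359), with 5.66, 5.94 and 6.52 in Vehicle against 5.51, 5.62 and 5.89. The Emcn and Dll4 calls depended on single libraries. Emcn lost its call without Vehicle 6 or PairFedVehicle 4 or 5 (adjusted p up to 0.0694). Dll4 lost it without any 1 of 7 libraries (Vehicle 1, 4 or 5, PairFedVehicle 1 to 4, adjusted p up to 0.0867), with length correction and with the 2 groups alone. Tek was at the edge, with every PairFedVehicle library above every Vehicle library and an adjusted p of 0.0619.

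Cldn5 is the member that separated from Vehicle in all 3 groups. Its call held in each of the alternatives run for these 3 comparisons. The highest library of each of the 3 groups, at 11.40 in TZP, 11.61 in LAGIPRA and 11.57 in PairFedVehicle, lay under the lowest Vehicle library. Emcn stood above Vehicle in LAGIPRA and PairFedVehicle, and its TZP fold change of 0.26 (SE 0.11) did not pass, with an adjusted p of 0.10. Centring each library on brown adipocyte markers other than Ucp1 moved the median of all tested genes in TZP from 0.04 to -0.14. No rise in LAGIPRA or PairFedVehicle passed under it: Emcn had 0.24 and 0.17 there, Ramp2 0.23 and Tie1 0.04. The brown adipocyte mean, with Ucp1 included and set against its average over all libraries, itself differed from Vehicle. It was -0.18 in Vehicle, 0.07 in LAGIPRA and 0.08 in PairFedVehicle. Centring thus lowers all genes in LAGIPRA and PairFedVehicle against Vehicle. The loss of these rises cannot tell a difference in the members from a difference in the centring markers. The Emcn call in LAGIPRA was also lost with the one-read level, a depth proxy, as a covariate. That level itself averaged 1.066 in Vehicle and 1.575 in LAGIPRA, so this fit cannot tell a difference by treatment from a difference by the proxy.

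Pair feeding is used to hold food intake equal to that of a treated group. Against PairFedVehicle, 15 of the 35 were lower in TZP and 0 higher by limma (19 and 2 at an unadjusted p under 0.05), where 8.02% of all tested genes were lower and 8.39% higher, with a members' median of -0.24 against -0.002. Tek and Cdh5 had the smallest p. Tek fell by 0.70 (SE 0.09, adjusted p = 3.6e-05): PairFedVehicle ran through 6.27, 6.47 and 6.66, above every TZP library. Cdh5 fell by 0.50 (SE 0.08, adjusted p = 0.000189), with PairFedVehicle from 9.05 to 9.13, a narrow range above all TZP libraries.

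Tie1 fell by 0.38 (SE 0.06, adjusted p = 0.000454) and Ramp2 by 0.35 (SE 0.08, adjusted p = 0.00321), both without overlap, as did Vwf, by 0.58 (SE 0.12, adjusted p = 0.00316). These 5 genes without overlap compare with 1.76% of all tested genes. Aplnr fell by 0.87 (SE 0.19, adjusted p = 0.00377), Cd93 by 1.48 (SE 0.30), Podxl by 0.99 (SE 0.22), Jcad by 1.36 (SE 0.34), Flt1 by 1.10 (SE 0.28), Kdr by 0.79 (SE 0.21) and Mmrn2 by 0.34 (SE 0.08). Esam, an immunoglobulin-type junction protein, fell by 0.24 (SE 0.07). Pecam1 (-0.18, SE 0.05) lost its call without TZP 6 (adjusted p = 0.0509). Clec14a, a C-type lectin of endothelium, at -0.35 (SE 0.11), lost it without TZP 3, 4 or 6 or PairFedVehicle 6 (adjusted p up to 0.0757).

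With TZP 1 and 2 alone, 6 members were lower than in PairFedVehicle by limma (Aplnr, Cdh5, Plvap, Ramp2, Tek and Tie1), where 1.91% of all tested genes were. At an unadjusted p under 0.05, 11 members were lower and 1 higher there. Tek had -0.38 (SE 0.09, adjusted p = 0.0134), Tie1 -0.38 (SE 0.09, adjusted p = 0.0146), Cdh5 -0.30 (SE 0.08, adjusted p = 0.0318), Ramp2 -0.37 (SE 0.10, adjusted p = 0.0392) and Aplnr -1.27 (SE 0.25, adjusted p = 0.00612). Kdr, Flt1 and Jcad had fold changes of 0.02, 0.11 and 0.02 there. Of the 15 calls against PairFedVehicle, 10 were lost with the length slope in the fit, which kept Aplnr, Cdh5, Ramp2, Tek and Tie1. Brown adipocyte centring lost 6 (Tie1, Ramp2, Mmrn2, Esam, Pecam1 and Clec14a). The calls of Tek, Cdh5 and Aplnr against PairFedVehicle held in each of the alternatives run. With TZP 3 to 6 alone 18 members were lower (background 12.9%).

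Between the drugs, 1 of the 35 was lower in TZP than in LAGIPRA and 0 were higher by limma (17 and 1 at an unadjusted p under 0.05), where 0.348% of all tested genes were lower and 0.0521% higher. Tek fell by 0.42 (SE 0.09, adjusted p = 0.0474). It lost that call without any 1 LAGIPRA library, or any 1 of TZP 3 to 6, with an adjusted p up to 0.151. The other 34 ran from -1.30 to 0.41. With TZP 1 and 2 alone 0 members were called by limma (0 higher and 4 lower at an unadjusted p under 0.05; background 0.0116% lower), and with TZP 3 to 6 alone 13 were lower (background 10.3%). In LAGIPRA against PairFedVehicle, Dll4 was higher by 0.42 (SE 0.11, adjusted p = 0.0160) and Ramp2 fell by 0.38 (SE 0.08, adjusted p = 0.00196), both without overlap, where 7.30% of all tested genes were higher and 4.55% lower. Both calls were lost with brown adipocyte centring (adjusted p = 0.106 and 0.121), and that of Dll4 also with the one-read level as a covariate. The one-read level averaged 1.575 in LAGIPRA and 1.234 in PairFedVehicle, so the same limit holds for that fit. Across the 6 comparisons 14 members were called in none: Angpt2, Egfl7, Eng, Erg, Flt4, Icam2, Nos3, Notch4, Plvap, Rasip1, Robo4, S1pr1, Sox17 and Sox18. S1pr1, the sphingosine 1-phosphate receptor of endothelial barrier control, was at 9.46, 9.90 and 10.08 in Vehicle and 9.46, 9.81 and 10.18 in TZP. Icam2, an adhesion ligand for leukocytes, was at 7.05, 7.30 and 7.41 in Vehicle and 6.89, 7.10 and 7.34 in TZP, so both genes overlapped between these groups.

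Other genes of these pathways came from a list of 40 ligands, partners and targets of the members, 36 of them tested. In TZP against Vehicle, 2 were higher and 12 lower, where 11.7% and 10.3% of all tested genes were. Notch1, the main endothelial Notch receptor, had the smallest p and fell by 2.32 (SE 0.42, adjusted p = 0.00114), but its mean was 5.14 in TZP 1 and 2 and 2.51 in TZP 3 to 6, against 5.71 in Vehicle. Ets1, an ETS factor, fell by 1.0 (SE 0.18) and was 6.15 and 5.16 in these parts against 6.49. Svep1, a large matrix protein, fell by 1.10 (SE 0.20) and was 3.58 and 3.38 against 4.55.

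Vegfb, a VEGF-family ligand of Flt1, rose by 0.45 in TZP against Vehicle (SE 0.12, adjusted p = 0.0129). It also rose in LAGIPRA against Vehicle, by 0.48 (SE 0.12, adjusted p = 0.0166). Hey1, a Notch target, rose by 0.54 in TZP (SE 0.18, adjusted p = 0.0345). Notch targets of the list did not move as one. Nrarp fell by 0.34 (SE 0.09, adjusted p = 0.0125), and Hes1 (0.23) and Hey2 (0.30) were not called. Vegfb was 7.80 in TZP 1 and 2 and 7.83 in TZP 3 to 6, against 7.37 in Vehicle. Hey1 was 5.70 in TZP 1 and 2 and 5.60 in TZP 3 to 6, against 5.10 in Vehicle. Against Vehicle, the list gave 1 higher and 2 lower in LAGIPRA (all tested genes: 8.70% and 5.03%) and 2 higher and 4 lower in PairFedVehicle (4.96% and 3.66%). In PairFedVehicle, Apln, which encodes the apelin ligand of Aplnr, fell by 1.31 (SE 0.35, adjusted p = 0.0194), Vegfa rose by 0.40 (SE 0.12, adjusted p = 0.0363) and Vegfd fell by 0.63 (SE 0.16, adjusted p = 0.0141).

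Of 9 tested genes for capillary lipid handling, 1 rose and 1 fell in TZP against Vehicle, near the 11.7% and 10.3% of all tested genes. Meox2, a homeobox factor of capillary endothelium, fell by 0.45 (SE 0.08, adjusted p = 0.00123), and Slc27a3, a fatty acid transport protein, rose by 0.52 (SE 0.16, adjusted p = 0.0243). Meox2 did not split within TZP, with 7.41 in libraries 1 and 2 and 7.42 in libraries 3 to 6, and its transcript is 2360 bases. It was 8.17 in PairFedVehicle, higher than Vehicle at 7.87 by 0.31 (SE 0.08, adjusted p = 0.0195), and TZP fell by 0.75 against PairFedVehicle (SE 0.08, adjusted p = 3.0e-06). Gpihbp1, which carries lipoprotein lipase to the capillary surface, differed by -0.03 (SE 0.09) between TZP and Vehicle and was not called.

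Markers of neighbouring cells moved in part with the endothelial genes, and their part in the results was not tested. The counts below stand beside 11.7% of all tested genes higher and 10.3% lower. Of 12 mural markers (pericytes and smooth muscle), 6 were lower and 1 higher in TZP against Vehicle, with Pdgfrb at -0.72 (SE 0.11), Rgs5 at -0.78 (SE 0.16) and Cspg4 at -0.56 (SE 0.12). Cnn1, a smooth muscle calponin, rose by 0.72 (SE 0.21, adjusted p = 0.0168), and Kcnj8, Acta2, Tagln and Des had fold changes from 0.12 to 0.24 that did not pass. The transcripts of Cnn1 and these 4 ran from 1595 to 3028 bases. Of the 6 lower markers, Mcam had 2989 bases and the others ran from 4096 (Rgs5) to 8121 (Cspg4). Myh11, at 6549 bases, was not called (-0.09, SE 0.13). The part of transcript length in these differences was not tested. Rgs5 was 9.33 in TZP 1 and 2 and 8.51 in TZP 3 to 6 against 9.57 in Vehicle, and Cspg4 was 7.83 and 7.16 against 7.94. The mean of the mural markers, set against its average over the 24 libraries, ran from -0.24 to 0.28 in Vehicle, at -0.06 and -0.0003 in TZP 1 and 2 and from -0.50 to -0.25 in TZP 3 to 6. The same mean of the 35 endothelial genes ran from -0.01 to 0.23 in Vehicle, from -0.02 to 0.12 in LAGIPRA, from 0.05 to 0.15 in PairFedVehicle, at -0.04 and -0.05 in TZP 1 and 2, and from -0.53 to -0.14 in TZP 3 to 6.

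Lymphatic markers, of which Flt4 is also a member of the 35, gave 0 limma calls of 5 tested in TZP against Vehicle (1 lower at an unadjusted p under 0.05). Lyve1 was lower in PairFedVehicle than in Vehicle with a fold change of -1.12 (SE 0.22, adjusted p = 0.00250). Platelet markers gave 1 lower of 5 (Gp1bb, -0.66, SE 0.24), stromal progenitor markers 1 lower of 6 (Pdgfra, -1.01, SE 0.21), macrophage markers 1 lower of 5 (Mrc1, -1.08, SE 0.24) and skeletal muscle markers 0 of 8, also at an unadjusted p under 0.05. Brown adipocyte markers gave 2 higher of 8, with Ucp1 at 0.50 (SE 0.12) and Cidea at 0.45 (SE 0.11). Against Vehicle they also gave 3 higher of 8 in LAGIPRA and 4 in PairFedVehicle, where 8.70% and 4.96% of all tested genes were higher. Ucp1 and Cidea were among the 3 in LAGIPRA, at 0.41 (SE 0.12) and 0.43 (SE 0.11). Within TZP, libraries 1 and 2 stood apart from 3 to 6 in the brown adipocyte mean. Set against its average over the 24 libraries, this mean was 0.37 in TZP 1 and 2, -0.13 in TZP 3 to 6 and -0.18 in Vehicle. PairFedVehicle 1, at 0.33, lay above TZP 2, at 0.28. The macrophage mean was -0.48, -0.02 and 0.36 in the same order, and -0.285 in LAGIPRA. Here the parts of TZP overlapped, with TZP 4 (-0.47) between TZP 1 (-0.64) and TZP 2 (-0.31).

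**Figure D4:**
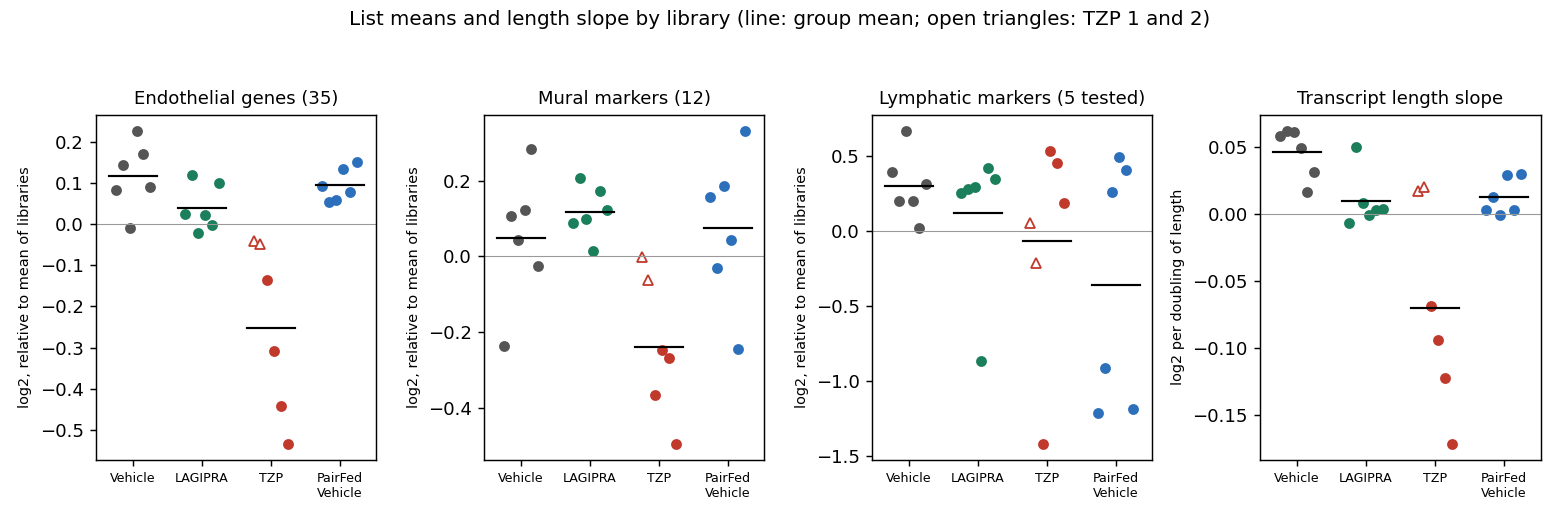
Mean of the endothelial genes, mural markers and tested lymphatic markers in each library, as a log2 difference from the average over the 24 libraries, and the slope on transcript length (log2 per doubling of length), by group, with lines at group means and open triangles for TZP libraries 1 and 2. TZP 3 to 6 are lowest for endothelial genes (-0.53 to -0.14), mural markers (-0.50 to -0.25) and slope (-0.17 to -0.07), with TZP 1 and 2 nearer the other groups.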

How the data were processed

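PolyA RNA of brown fat was sequenced in 24 libraries. Per the labels' protocols, extraction used TRIzol reagent followed by an RNeasy lipid kit. The submitters' processing notes name cutadapt 1.9.1 and GSNAP, with no role for either. How reads were counted, on which build and annotation, and whether strand was used are not given in the sources used here. All deposited values were taken as log2 expression per gene, quantile normalized by the authors. This was read from the values, which ran from -0.50 to 22.35, and sequencing depth is unknown. No further normalization was applied, and 0 sample columns were left unused.

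Genes in the lowest 25% by mean (below 2.86) were left out. Groups were compared with limma 3.58.1 (R 4.3.3) on all 24 libraries, fitting a mean for each group, with a variance trend and two-sided Benjamini-Hochberg p over 17263 genes; the code was tested on simulated data. Length slopes used the longest GENCODE M21 transcript, known for 15407 tested genes (89.2%), and exact permutation tests over 924 assignments. All members are accounted for: called members are named, and libraries are given for Cdh5, Pecam1, Kdr, Tek, Tie1, Cldn5, Vwf and for the 2 called members of each role with the smallest p in TZP against Vehicle; values of other members were added after their values were seen. Each other list gives up to 3 called members, and further genes from them (among them Meox2, Hey1, Nrarp, Hes1, Hey2, Apln, Vegfa, Vegfd, Lyve1, Gpihbp1) were likewise added. Members and lists were chosen with earlier results of these data known. Alternatives covered filters, scaling, length, depth proxy, variance model, weights, samples in the fit, the replicate block, TZP libraries apart and each library left out.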

Additional observations from a re-analysis of the deposited data

Results flagged for a closer look

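In 10 of 140 sets of 6 libraries (35 genes in 4 groups), the highest or lowest library stood apart from the rest by more than the Dixon critical value of 0.625 allows. Chance alone flags about 1 in 20 such sets. PairFedVehicle 6 was the highest of its group for 4 genes: Flt1 at 7.28, Eng at 8.49, Ptprb at 6.00 and Podxl at 8.27. Vehicle 3 was the lowest of its group for 3 genes: Eng at 7.88, Sox17 at 4.42 and Rasip1 at 7.20. Tie1 in PairFedVehicle 1 was at 7.86, Robo4 in LAGIPRA 1 at 6.52 and Dll4 in LAGIPRA 4 at 6.24. Calls of Tie1 in PairFedVehicle against Vehicle held without PairFedVehicle 1 (adjusted p = 0.0269), and that of Dll4 in LAGIPRA against PairFedVehicle held without LAGIPRA 4 (adjusted p = 0.0462).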

How the results depend on the processing

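Read against Vehicle, TZP called 3805 genes and 15 members. These became 817 and 3 with TZP 1 and 2 alone, and 198 and 1 with the length slope added to the fit. Centring on brown adipocyte markers gave 2370 genes and a members' median of -0.342, and fitting only the 2 groups compared gave 2514 genes. With the length slope, Flt1 turned to 0.139, Podxl to 0.249 and Kdr to 0.27; with TZP 1 and 2 alone, Podxl turned to 0.0689 and Kdr to 0.0554. Against PairFedVehicle (2832 genes), TZP called 1031 genes and 6 members with TZP 1 and 2 alone, where the median was -0.131 and Jcad, Flt1 and Kdr turned to 0.0205, 0.112 and 0.0247. The length slope gave 963 and 6, brown centring 1751 and 9, and the 2 groups alone 1503 genes. Against LAGIPRA (69 genes, 1 member), TZP called 15 genes and 0 members with no filter or without the variance trend, 2 and 0 with TZP 1 and 2 alone, 2251 and 13 with TZP 3 to 6 alone, and 0 and 0 with the length slope. It called 166 and 5 with the one-read level (a depth proxy) as a covariate, 321 and 6 with brown centring, 1071 and 10 with array weights, 3 and 0 with the 2 groups alone, and 38 and 0 with the muscle mean as a covariate. Length correction gave 96 genes and 2 members, and leaving out one library gave 0 (without LAGIPRA 3) to 1088 genes (without TZP 2) and 0 to 11 members.

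LAGIPRA against Vehicle (2370 genes, 2 members) called 54 genes and 1 member with the one-read level, 662 and 4 with brown centring (median -0.237), 4783 and 5 with array weights, and 1479 genes with the muscle mean. The length slope gave 4 members (2774 genes) and the 2 groups alone 4 (2972). Leaving out one library gave 945 (without LAGIPRA 5) to 3819 (without Vehicle 5) genes. PairFedVehicle against Vehicle (1487 genes, 5 members) called 8 members with the length slope (with Kdr, Podxl and Tek higher; 1639 genes) and 8 with array weights (2173 genes), and brown centring moved the median to -0.232. LAGIPRA against PairFedVehicle (2046 genes, 2 members) called 1186 genes and 5 members with the one-read level (Dll4 no longer among them), 938 and 0 with brown centring, 3260 and 4 with array weights. It called 4 members with the lowest 50% left out (1961 genes), 4 with the length slope (2464) and 5 with the 2 groups alone (1987). The cause of these changes was not tested.

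Replicate numbers did not pair the libraries: deviations of same-numbered libraries correlated from -0.60 to 0.38, with a median of -0.0004 over 36 pairs. With the replicate number as a block, TZP against LAGIPRA called 23 genes and 0 members; TZP against Vehicle called 3549 genes and 15 members. Depth is unknown, so its limit on low values cannot be given, and each group has 6 libraries.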
